A study of Mus musculus with 4 samples.

Results

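The genes described here are 9 genes best known from neurons, Dnm3, Kcnb2, Agbl4, Auts2, Gria2, Ncam1, Ncam2, Chrm3 and Slc17a8, among 32285 genes counted in single mouse bone marrow stem and progenitor cells with and without the corepressor SIN3B. They were selected because their measured level differed between the genotypes in these same cells, so every genotype value below is a description and none of them is a test. The libraries held LSK cells (Lineage- Sca-1+ cKit+, the marrow fraction that contains the hematopoietic stem cells) from C57BL/6 mice, read by 3' droplet sequencing, once at homeostasis and once 9 days after a 100 mg/kg dose of the antimetabolite 5-fluorouracil (5-FU). Both genotypes carried floxed Sin3B alleles. The wild-type mice were Sin3B F/F without the recombinase, and the knockout mice (Sin3B-/- below) were Sin3B F/F with Vav1-iCre. In the latter the Vav1 promoter drives Cre across the blood lineages from embryonic life, so deletion was due to start long before sampling. The mice at homeostasis were male. Cells of 2 mice were pooled per genotype, the genotypes were told apart by antibody hashtags in a shared library, and 1 pool per genotype and library leaves no replicate, so intervals here cover counting error only.

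SIN3B is a scaffold that brings histone deacetylases to chromatin through transcription factors, among them E2F-bound DREAM complexes that hold cells in quiescence. SIN3B and its paralog SIN3A are also counted among the corepressors of REST. This zinc-finger repressor recognises the RE1 element and keeps neuronal genes silent outside the nervous system. Genes with neuronal names are also transcribed in blood cells. Dynamin-3 is known from megakaryocytes, and NCAM1 is the CD56 antigen of human natural killer cells.

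The promoter sequences are shown because repression by REST, E2F or DREAM would act through short motifs, and these are the 4 promoter windows of the 9 genes that held any letters searched for. RefSeq promoters (GRCm38.p6) were found for 6 of the 9 genes, at 7 start sites. Kcnb2, Auts2 and Ncam1 are named only. Each window is the 250 bases before the start site, written 5' to 3' on the gene's own strand, with the match in capitals. The Dnm3 window is chr1:162478035-162478284 on the minus strand, that of Gria2 chr3:80802836-80803085 on the minus strand, that of Slc17a8 chr10:89621250-89621499 on the minus strand and that of Ncam2 chr16:81200447-81200696 on the plus strand.
Dnm3: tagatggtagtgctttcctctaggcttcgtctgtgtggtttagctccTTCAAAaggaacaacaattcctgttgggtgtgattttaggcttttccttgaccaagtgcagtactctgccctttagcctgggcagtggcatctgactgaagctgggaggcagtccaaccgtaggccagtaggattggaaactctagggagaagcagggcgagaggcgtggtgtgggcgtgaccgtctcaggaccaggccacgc
Gria2: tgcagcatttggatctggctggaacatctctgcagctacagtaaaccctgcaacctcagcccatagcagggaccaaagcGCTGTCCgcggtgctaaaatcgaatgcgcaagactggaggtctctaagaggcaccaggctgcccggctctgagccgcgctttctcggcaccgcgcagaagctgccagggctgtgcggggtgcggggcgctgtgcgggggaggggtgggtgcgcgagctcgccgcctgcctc
Slc17a8: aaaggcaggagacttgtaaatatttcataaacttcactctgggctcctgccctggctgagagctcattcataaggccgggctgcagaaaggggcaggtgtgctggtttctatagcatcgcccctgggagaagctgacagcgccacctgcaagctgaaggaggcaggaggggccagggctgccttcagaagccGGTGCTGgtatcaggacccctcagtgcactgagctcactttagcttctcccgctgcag
Ncam2: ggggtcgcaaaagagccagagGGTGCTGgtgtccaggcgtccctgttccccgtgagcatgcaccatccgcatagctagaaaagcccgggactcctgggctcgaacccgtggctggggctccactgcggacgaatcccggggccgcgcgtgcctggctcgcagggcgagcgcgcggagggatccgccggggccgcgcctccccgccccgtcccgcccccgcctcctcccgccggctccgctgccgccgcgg
Both strands were searched. The Dnm3 window held the cell cycle homology letters TTTGAA, on the other strand, 203 bases before the start, and 16.0% of 32851 mouse promoter windows of this length held the same letters. The Gria2 window held GGACAGC, the right part of the RE1 element, on the other strand at 171 bases before the start, which 5.28% of windows held. Close after that match the window reads ggtgcta, which differs in 1 letter from GGTGCTG, the left part on the other strand. Between the match and this stretch lie 2 bases. The search took exact letters only and did not count the stretch. The 5.28% is for GGACAGC alone, and windows with both parts side by side were not counted. Slc17a8 and Ncam2 held CAGCACC, the left part, on the other strand at 58 and 229 bases before the start, which 5.73% of windows held. No window of the 9 genes held the E-box CACGTG (6.02% of all windows), TTCGAA (1.34%) or the E2F letters TTTGGCGC (0.417%) and TTTCCCGC (0.895%). No 2 exact matches fell in 1 window. A match of so few letters describes the window and does not show a bound site. The Ncam2 window is rich in G and C, at 75.2% with 32 CG pairs, beside a median of 52.4% and 6 CG pairs over all windows.

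After hashtag calling and removal of the shallowest, deepest and lineage-marked cells, the homeostasis library gave 10184 wild-type and 4108 Sin3B-/- cells with median depths of 6967 and 6606.5 UMIs (unique molecules), and the 5-FU library gave 4855 and 3307 cells with 9306 and 10935. A pool is the sum of one genotype's cells, and its level is given as CPM, UMIs of the gene per 1000000 UMIs of that pool. Sin3b itself stood at 81.7 CPM in wild-type and 23.3 CPM in knockout homeostasis cells and, in the 5-FU library, at 112.7 and 15.1 CPM, lower in the knockout in 12 of 12 and 11 of 11 clusters. Whether the counted Sin3b molecules come from exons outside the deletion was not tested. LT-HSC-like cells, named from Procr, Mecom, Hlf, Slamf1, Fgd5, Ctnnal1, Hoxb5, Mmrn1 and Vwf, made up 10.7% of wild-type and 34.8% of Sin3B-/- homeostasis cells, and in the 5-FU library 14.1% and 23.3%. Cells with no hashtag call, 5611 at homeostasis and 2983 after 5-FU, are not in these shares. The clustering left out the 9 genes and their relatives. Even so, Ncam2, Chrm3, Dnm3 and Slc17a8 were among the 10 genes that led the homeostasis LT-HSC-like cluster by fold. Defining neuronal genes (Rbfox3, Tubb3, Snap25, Syt1, Syp, Stmn2, Nefl) summed to 5.18 CPM in wild-type and 7.30 CPM in Sin3B-/- cells at homeostasis, with Sin3B-/- cells at 0 for 1 of the 7, and to 2.10 and 2.16 CPM after 5-FU, with 3 and 4 of the 7 at 0. The 6 glial markers summed to 6.40 and 6.02 CPM at homeostasis and to 7.28 and 6.49 CPM after 5-FU, so both lists differed by less than 2-fold between genotypes. Of the other 11 marker lists, 2 differed by more over all cells. Stromal markers (7 genes) summed to 2.53 CPM in wild type and 8.12 CPM in Sin3B-/- at homeostasis and to 10.1 and 13.8 CPM after 5-FU, and mast cell and basophil markers (6 genes) to 8.65 and 3.29 CPM and to 14.5 and 5.11 CPM. Their part in the results below was not tested. In the homeostasis library, droplets without a cell carried the 9 genes at 0.638% to 2.21% of their level per cell, below Mpo (3.33%), Elane (7.51%) and Hbb-bs (8.59%). The libraries share 76 cell barcodes.

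A gene was counted as past 2-fold in a pool where it had at least 50 UMIs over both genotypes and its CPM differed at least 2-fold. At homeostasis, 5 of the 9 genes were higher in Sin3B-/- cells (Dnm3, Kcnb2, Agbl4, Ncam2 and Slc17a8) and 3 were lower (Auts2, Gria2 and Ncam1), where 1.9% and 1.85% of 15509 measured genes lay past the same bounds. Among LT-HSC-like cells, 8 of the 9 were measured, 3 were higher (Dnm3, Kcnb2 and Agbl4) and 3 lower (Auts2, Ncam1 and Chrm3), beside 0.719% and 1.19% of 12093 genes. After 5-FU, 7 were measured, of which 3 were higher (Dnm3, Ncam2 and Slc17a8) and 4 lower (Agbl4, Auts2, Gria2 and Ncam1), beside 1.25% and 1.51% of 13510 genes. In LT-HSC-like cells after 5-FU, 5 were measured, with 3 higher (Dnm3, Ncam2 and Slc17a8) and 2 lower (Auts2 and Ncam1), beside 0.963% and 1.12% of 10804 genes. The genes were chosen on this contrast, so nothing is read from these counts against the background. Dnm3 was higher and Auts2 and Ncam1 were lower in all 4 pools, while Agbl4 over all cells lay on opposite sides in the 2 libraries.

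**Figure D1:**
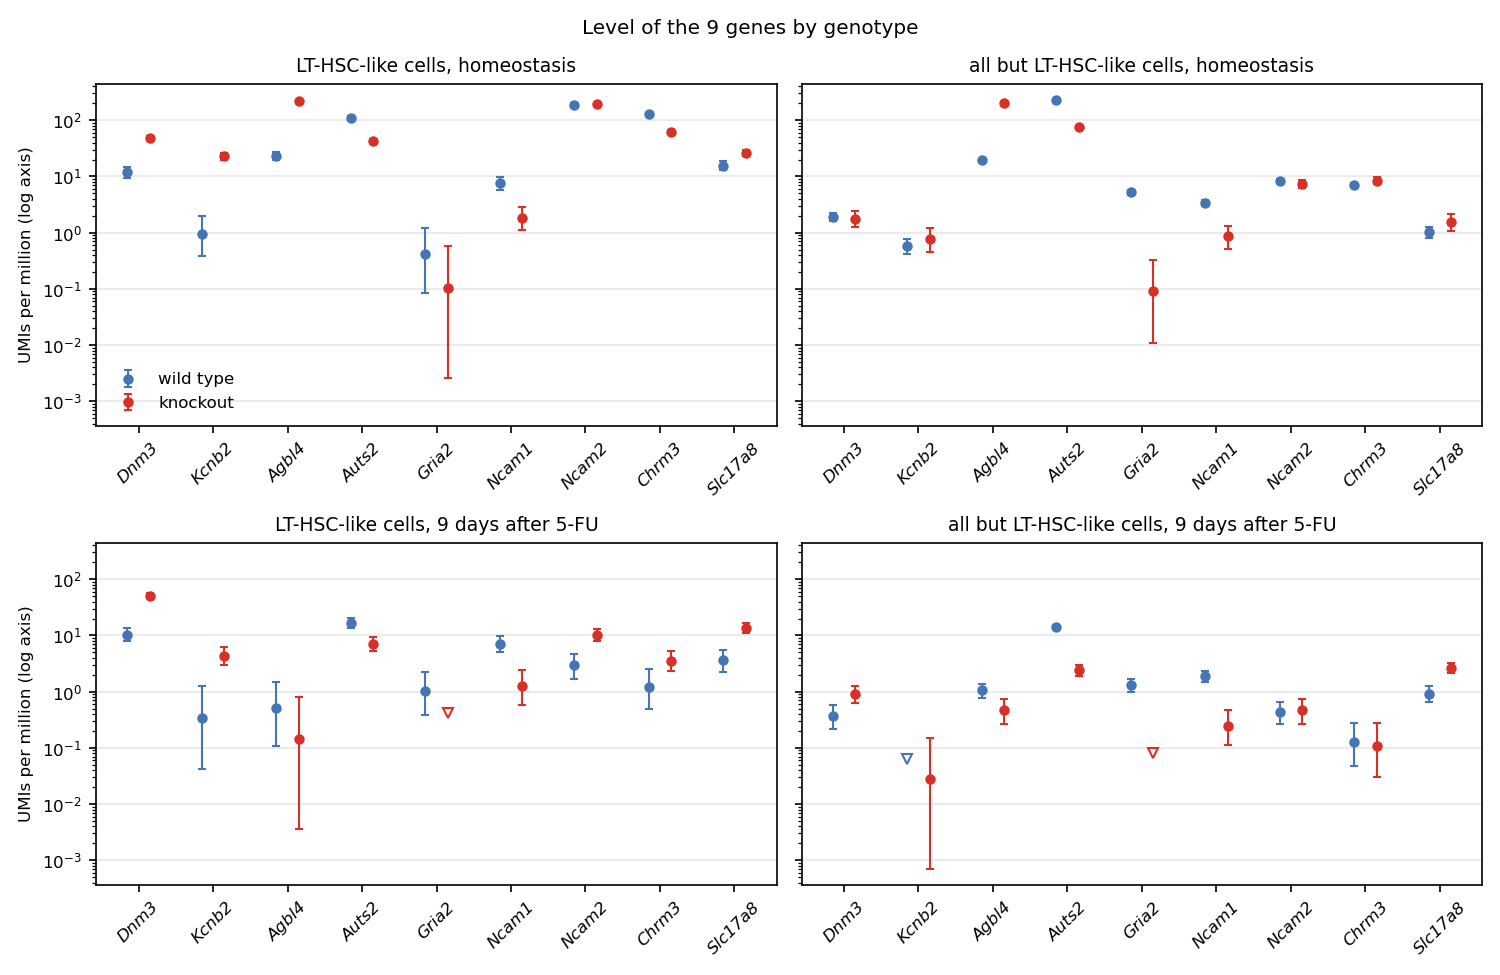
Level of each of the 9 genes as UMIs per 1000000 UMIs of the pool (log axis) in wild-type (blue) and knockout (red) pools, for LT-HSC-like cells and all other cells of each library, with 95% Poisson intervals for counting error and open triangles at the level of 3 counts for pools with no UMI. In LT-HSC-like cells Dnm3 lies higher in the knockout in both libraries (11.9 and 48.0 CPM at homeostasis), Ncam2 lies level at homeostasis, and Auts2 and Ncam1 lie lower in every panel.

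Levels are not compared between the libraries. Homeostasis counts include reads from introns and those after 5-FU do not, and the median log2 ratio of homeostasis over 5-FU levels ran from -0.47 in the tenth of genes with the shortest introns to 1.82 in the tenth with the longest, over 13641 genes. The 9 genes lie at intron-length percentiles of 72.4 (Slc17a8) to 99.8 (Agbl4), and their own library ratios ran from 0.39 (Dnm3) to 6.60 (Agbl4). Treatment, library and read type therefore cannot be told apart in any level, and only the genotypes within a library are set side by side. A log2 ratio below is of Sin3B-/- over wild-type CPM with 0.5 UMIs added to each, and its bracketed 95% interval covers counting error.

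Dnm3 encodes dynamin-3, a GTPase that pinches vesicles off membranes, and spans chr1:161982453-162478034 on the minus strand (GRCm38), 95.1% of it intron. In LT-HSC-like cells at homeostasis it stood at 11.9 CPM in wild type (87 UMIs) and 48.0 CPM in Sin3B-/- (468 UMIs), a log2 ratio of 2.00 (1.67 to 2.35). It was carried by 5.68% of wild-type and 16.9% of Sin3B-/- LT-HSC-like cells, or 4.10% and 11.3% in cells thinned to 4000 UMIs. Here and below, cells under 4000 UMIs were left out of the thinned shares. Of all kept cells these were 4.75% of wild-type and 5.55% of Sin3B-/- cells at homeostasis, and 10.5% and 5.14% after 5-FU. In neutrophil primed-like cells, the background for this gene, 0.778% of wild-type cells held a UMI and 0 of 235 Sin3B-/- cells did, which at a limit of 3 counts allows a share of cells with a UMI of up to 1.28%. The median depths were 9139 and 10072 UMIs there and 5678.5 and 6096 in LT-HSC-like cells. The 10 highest Sin3B-/- LT-HSC-like cells held 15.4% of its UMIs there, so the level was spread over many cells. Outside the LT-HSC-like cells the genotypes lay side by side at homeostasis, at 1.91 CPM in wild type and 1.76 CPM in Sin3B-/- (log2 -0.10, -0.66 to 0.41). After 5-FU they did not, at 0.364 CPM (17 UMIs) and 0.903 CPM (33 UMIs), a log2 ratio of 1.29 (0.42 to 2.25). The LT-HSC-like levels in that library were 10.3 CPM (60 UMIs) and 51.2 CPM (362 UMIs), a log2 ratio of 2.30 (1.91 to 2.73), and 5.83% and 28.5% of cells held a UMI (3.69% and 17.8% at 4000 UMIs). These cells formed 2 clusters that divide the genotypes unequally, cluster 3 with 579 wild-type and 286 Sin3B-/- cells and cluster 7 with 107 and 486. Dnm3 was higher in the knockout within each, from 8.76 to 25.0 CPM in cluster 3 (log2 1.51, 0.97 to 2.08) and from 20.6 to 73.3 CPM in cluster 7 (log2 1.79, 1.11 to 2.66). Cluster 3 was led by Neo1, Pla2g7 and Smtnl1 and held the immediate early gene Nr4a1 among its 10 leading genes, and cluster 7 was led by Cyp26b1, Cldn5 and the interferon-induced Gbp4. Clusters were numbered in each library apart, and cluster 7 at homeostasis was an unnamed cluster led by Zfp981 and Agbl4, not an LT-HSC-like one. It held 1 wild-type and 11 Sin3B-/- UMIs of Dnm3. Leaving out the cluster numbered 7 in each library was a choice made after seeing the data. The log2 ratio of Dnm3 over all remaining cells was then 2.80 in the homeostasis and 1.27 in the 5-FU library.

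Kcnb2, a delayed-rectifier potassium channel subunit (chr1:15287254-15723750, plus strand), was almost unseen in wild-type LT-HSC-like cells at homeostasis, with 7 UMIs in 1092 cells (0.961 CPM), and had 223 UMIs in 1430 Sin3B-/- cells (22.9 CPM). The log2 ratio was 4.48 (3.51 to 5.90), and 2.12, from 34 and 196 UMIs, when the hashtags were called with a mixture model. These molecules sat in few cells. Only 40 Sin3B-/- cells, 2.80%, held any, beside 0.458% of wild-type cells, the richest cell held 39, and the 10 richest held 64.6%. In neutrophil primed-like cells, 0 of 1029 wild-type cells held a UMI, which allows a share of up to 0.292%, and 1.28% of 235 Sin3B-/- cells did. Thinned to 4000 UMIs a cell, the LT-HSC-like shares were 0.205% and 2.19%. Outside the LT-HSC-like cells the levels were 0.569 and 0.768 CPM, a log2 ratio of 0.46 whose interval (-0.47 to 1.27) holds 0. By cluster, the interval lay above 0 in 3 of 11 clusters and held 0 in 8. Beside the LT-HSC-like cluster these were megakaryocyte-erythroid primed-like cells (3 and 9 UMIs, log2 2.39, 0.53 to 5.05) and neutrophil primed-like cells (0 and 3 UMIs), both from few molecules. After 5-FU 2 wild-type and 31 Sin3B-/- UMIs were counted in LT-HSC-like cells, too few for the 50-UMI bound, with a log2 ratio of 3.37 (1.69 to 6.78). Of these, 2 and 28 lay in cluster 7, which holds 107 wild-type and 486 Sin3B-/- cells, where the ratio was 1.21 with an interval that holds 0 (-0.48 to 4.62).

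Gria2 encodes the GluA2 subunit that makes AMPA-type glutamate receptors impermeable to calcium (chr3:80681450-80802835, minus strand). It was found mostly in lymphoid cells. At homeostasis wild-type cells held 395 UMIs (4.77 CPM) and Sin3B-/- cells held 3 (0.0940 CPM), a log2 ratio of -5.44 (-7.95 to -4.11). Of the wild-type UMIs, 346 lay in the lymphoid primed-like cluster, where 10.5% of 1038 cells held one (46.5 CPM, and 8.25% of cells at 4000 UMIs). The same cluster held 0 UMIs in 132 Sin3B-/- cells, which allows a share of up to 2.27% of cells with a UMI. LT-HSC-like cells held 3 wild-type UMIs and 1 Sin3B-/- UMI, so no difference was detectable there at this depth. After 5-FU wild-type cells held 67 UMIs and Sin3B-/- cells 0, so the level was at least 18.6-fold lower in the knockout, against 3 counts over the whole Sin3B-/- pool. Of these 67, 52 lay in cluster 8, a cluster left unnamed and led by Ighm, Cmah and Dntt, where 293 wild-type cells stood at 18.3 CPM and 133 Sin3B-/- cells at 0. Lymphoid genes move with genotype in the same direction, and their part in this result was not tested: the 6 lymphoid primed markers summed to 797 CPM in wild-type and 583 CPM in Sin3B-/- cells at homeostasis, and to 243 and 139 CPM after 5-FU. The lymphoid primed-like cluster took 1038 of 10184 wild-type cells and 132 of 4108 Sin3B-/- cells. With each cluster given the same weight in both genotypes, the log2 ratio at homeostasis was -2.71. That value rests on few molecules. Of the 3 Sin3B-/- UMIs, 1 lay in cluster 2, which held 1755 wild-type and 30 Sin3B-/- cells. This UMI alone put the Sin3B-/- level of cluster 2 at 4.92 CPM.

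Chrm3, a muscarinic receptor that couples acetylcholine to calcium release through Gq (chr13:9875486-10360847, minus strand), was a stem cell transcript in both genotypes at homeostasis. LT-HSC-like cells stood at 127.6 CPM in wild type (930 UMIs) and 62.6 CPM in Sin3B-/- (611 UMIs), a log2 ratio of -1.03 (-1.18 to -0.88), which came under 2-fold in 3 of 9 alternatives, down to -0.51 in coarser clusters. The share of cells with a UMI was 21.9% and 11.5%, or 18.2% and 8.23% at 4000 UMIs, beside 2.24% and 2.55% of neutrophil primed-like cells. Summed over all kept cells the order was the other way round, at 17.6 CPM and 25.0 CPM (log2 0.51, 0.38 to 0.63). LT-HSC-like cells held 30.6% of the UMIs of all genes in the Sin3B-/- pool and 8.79% in the wild-type pool. With the same cluster weights in both genotypes the log2 ratio over all cells was -0.73. Cluster 7 at homeostasis, an unnamed cluster of 89 wild-type and 882 Sin3B-/- cells, was the one cluster of 12 in which the interval of Chrm3 lay above 0, at 3.58 and 13.4 CPM (3 and 88 UMIs). After 5-FU just 7 and 25 UMIs were found in LT-HSC-like cells, a log2 ratio of 1.48 (0.30 to 3.00), and within the 2 clusters the interval holds 0, at 1.0 (-1.51 to 3.82, from 3 and 4 UMIs) in cluster 3 and -0.05 (-1.48 to 2.09, from 4 and 21 UMIs) in cluster 7.

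**Figure D2:**
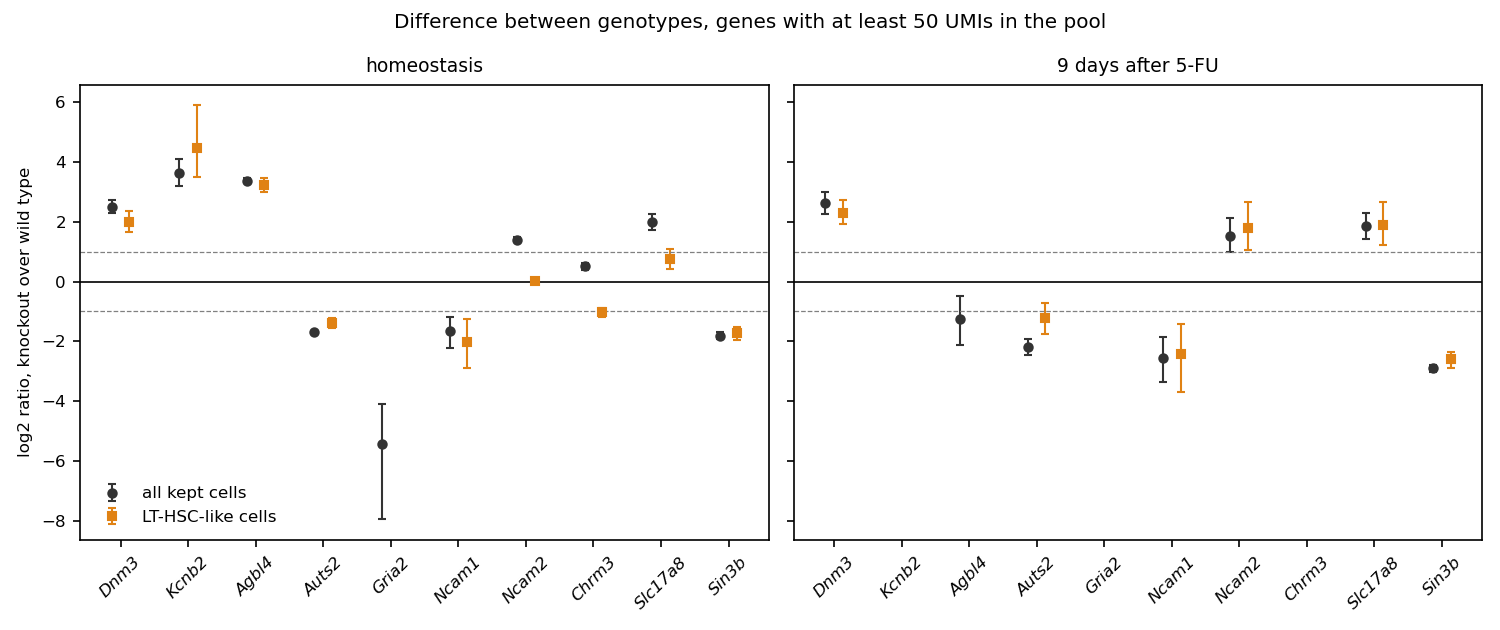
Log2 ratio of Sin3B-/- over wild-type level for the 9 genes and Sin3b, in all kept cells (circles) and LT-HSC-like cells (squares) of each library, with 95% counting intervals, drawn for pools with at least 50 UMIs, dashed lines at 2-fold and Gria2 after 5-FU (0 knockout UMIs) not drawn. At homeostasis Ncam2, Chrm3 and Slc17a8 lie lower in LT-HSC-like cells than over all cells, and Agbl4 lies at 3.38 over all homeostasis cells and at -1.24 after 5-FU.

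Slc17a8 encodes VGLUT3, a vesicular glutamate transporter (chr10:89574020-89621253, minus strand), and has the shortest introns of the set. At homeostasis it stood at 15.5 CPM (113 UMIs) in wild-type and 26.2 CPM (256 UMIs) in Sin3B-/- LT-HSC-like cells, a log2 ratio of 0.75 (0.43 to 1.09), under the 2-fold bound. The shares of cells with a UMI were 4.58% and 6.57%, or 4.10% and 4.99% at 4000 UMIs, beside 0.486% of 1029 wild-type and 0 of 235 Sin3B-/- neutrophil primed-like cells, the latter allowing up to 1.28%. Over all cells the ratio was larger, 1.99 (1.72 to 2.26), from 2.29 and 9.09 CPM, and with the same cluster weights in both genotypes it was 0.66. After 5-FU the LT-HSC-like levels were 3.62 CPM (21 UMIs) and 13.6 CPM (96 UMIs), a log2 ratio of 1.88 (1.22 to 2.66), and the 2 clusters parted. Cluster 3 held 16 and 10 UMIs at 3.18 and 3.09 CPM, and cluster 7 held 5 and 86 at 6.43 and 22.4 CPM (log2 1.67, 0.53 to 3.46). Megakaryocyte-erythroid primed-like cells also carried it after 5-FU, with log2 ratios of 0.88 (0.21 to 1.61) in cluster 2 and 2.61 (0.83 to 6.04) in cluster 6, a cluster led by histone genes, the second from 2 and 18 UMIs.

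Ncam2, an immunoglobulin-family adhesion protein of olfactory axons (chr16:81200697-81626828, plus strand), had nearly the same level in both genotypes within LT-HSC-like cells at homeostasis. They stood at 188.7 CPM in wild type (1375 UMIs) and 192.4 CPM in Sin3B-/- (1877 UMIs), a log2 ratio of 0.03 (-0.07 to 0.13). The rest of the cells stood at 8.40 and 7.32 CPM (log2 -0.20, -0.46 to 0.05). Over all cells the levels were 24.3 and 63.9 CPM, a log2 ratio of 1.40 (1.31 to 1.49), and with the same cluster weights in both genotypes the ratio was 0.04. Of all Ncam2 molecules, 68.4% in wild type and 92.1% in Sin3B-/- came from LT-HSC-like cells. A UMI was found in 32.6% of wild-type and 28.0% of Sin3B-/- LT-HSC-like cells, 27.5% and 23.4% at 4000 UMIs, and in 0.875% and 0.851% of neutrophil primed-like cells. A narrower choice of cells gave another value: in cells with a Slamf1 UMI and none of Cd48 or Flt3, the log2 ratio was 1.46 from 117 and 508 UMIs. After 5-FU the LT-HSC-like levels were 2.93 CPM (17 UMIs) and 10.3 CPM (73 UMIs), log2 1.79 (1.04 to 2.67). Nearly all the Sin3B-/- molecules, 67 of 73, lay in cluster 7, where the ratio was 1.08 with an interval of -0.02 to 2.68, and in cluster 3 the ratio was -0.19.

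Ncam1 (chr9:49502136-49798925, minus strand), the relative of Ncam2 that carries polysialic acid on neurons, was lower in the knockout in all 4 pools. At homeostasis it stood at 7.55 CPM (55 UMIs) in wild-type and 1.85 CPM (18 UMIs) in Sin3B-/- LT-HSC-like cells, log2 -2.01 (-2.89 to -1.24), and at 3.35 and 0.858 CPM in the other cells (log2 -1.93, -2.72 to -1.29). After 5-FU the LT-HSC-like levels were 7.07 CPM (41 UMIs) and 1.27 CPM (9 UMIs), log2 -2.41 (-3.70 to -1.41). The counts are low, and the interval lay below 0 in 5 of 12 clusters at homeostasis and in 6 of 10 after 5-FU and above 0 in none. A UMI was found in 3.48% of wild-type and 1.05% of Sin3B-/- LT-HSC-like cells at homeostasis, 2.56% and 0.604% at 4000 UMIs. In neutrophil primed-like cells the shares were 2.14% and 0.426%.

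**Figure D3:**
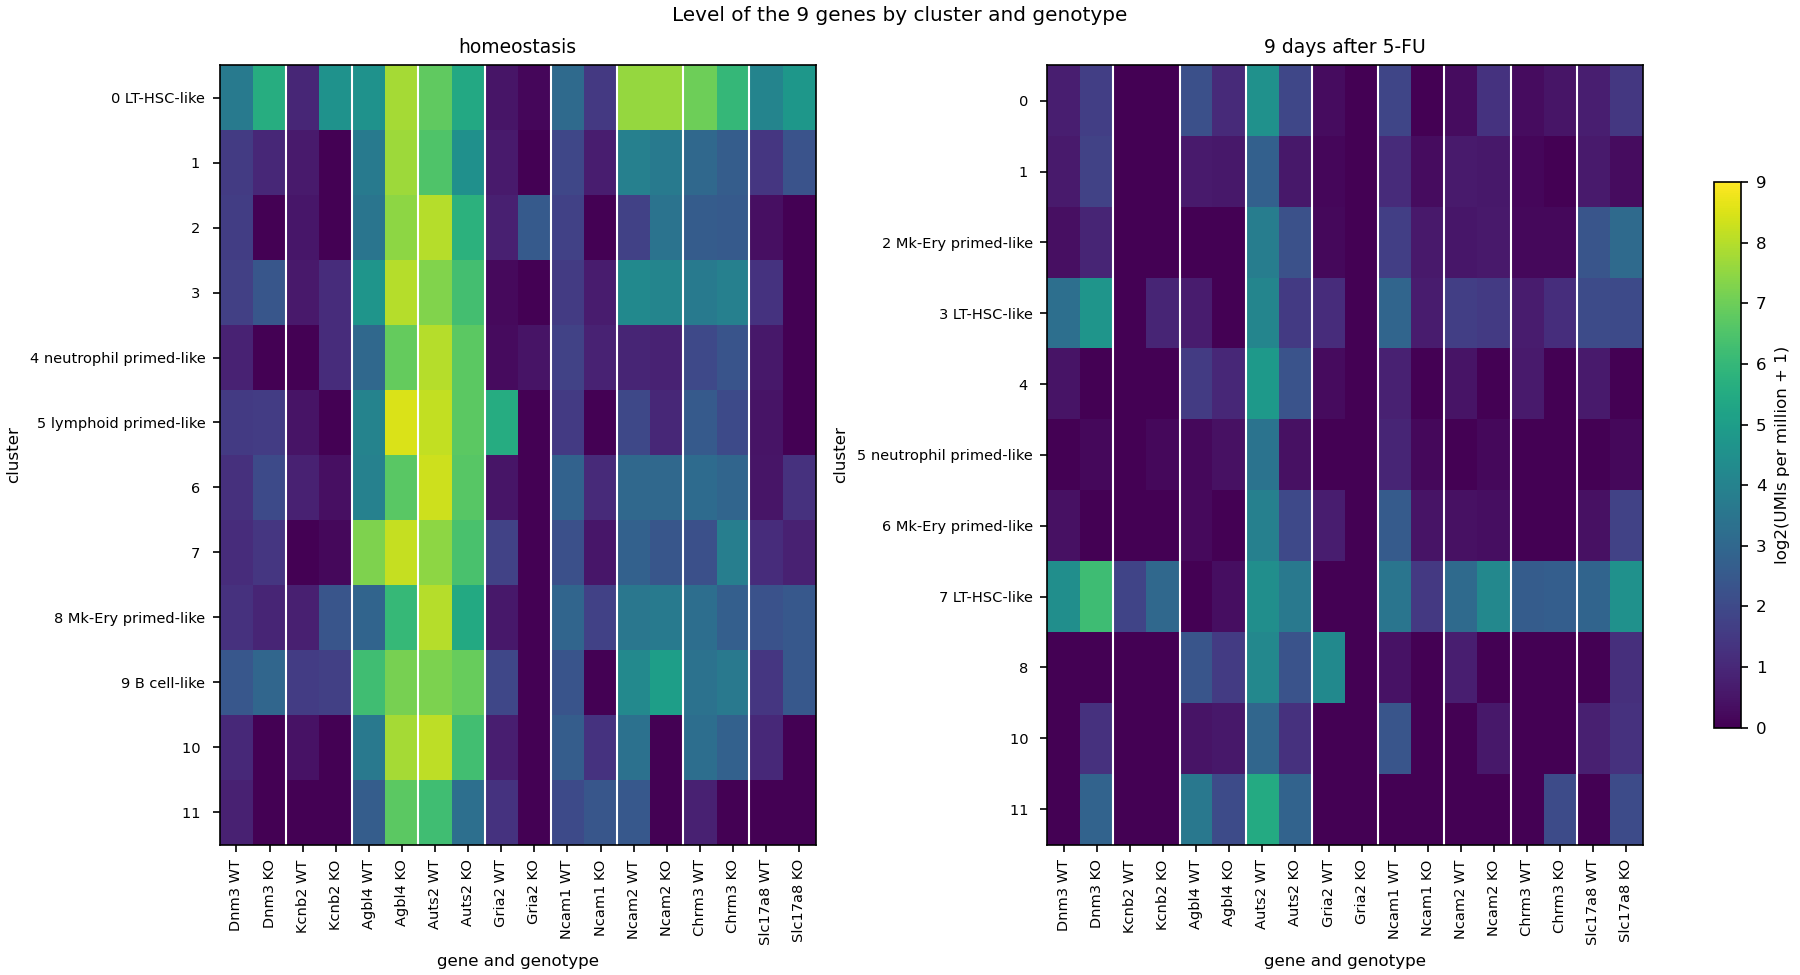
Level of each gene by cluster (rows) and by gene and genotype (columns, WT for wild type and KO for knockout) as log2 of UMIs per 1000000 plus 1, for clusters with at least 20 cells of each genotype, where Mk-Ery stands for megakaryocyte-erythroid. Ncam2 and Chrm3 peak in the LT-HSC-like cluster of both genotypes at homeostasis, Gria2 in the wild-type lymphoid primed-like cluster, and Agbl4 is high in knockout cells of every homeostasis cluster.

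Agbl4 encodes a cytosolic carboxypeptidase that trims glutamate from tubulin tails. It is the longest gene of the set, 1266664 bases at chr4:110397661-111664324 on the plus strand, 99.2% intron. At homeostasis it stood at 19.7 CPM (1629 UMIs) in wild-type and 204.8 CPM (6535 UMIs) in Sin3B-/- cells, a log2 ratio of 3.38 (3.30 to 3.46), and 8.31% and 40.2% of cells held a UMI (4.67% and 31.9% at 4000 UMIs). The difference was not tied to a cell type. The interval lay above 0 in 12 of 12 clusters, from log2 0.96 in the B cell-like cluster to 4.54 in the lymphoid primed-like cluster (113 and 348 UMIs, 15.2 and 354.7 CPM), and was 3.23 in LT-HSC-like cells and 4.0 in neutrophil primed-like cells. The 2 clusters with the lowest ratios of the 12 had the highest wild-type levels, cluster 7 at 151.5 CPM and the B cell-like cluster at 73.7 CPM. After 5-FU the gene was barely counted and lay the other way, at 0.991 CPM (52 UMIs) in wild type and 0.413 CPM (18 UMIs) in Sin3B-/-, log2 -1.24 (-2.13 to -0.47). The ratio stayed below 0 but came under 2-fold in 3 of 9 alternatives, down to -0.64 in cells thinned to 4000 UMIs. The interval then lay below 0 in 1 of 10 clusters and above 0 in none.

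The genes around Agbl4, looked at after its values were seen, did not all move alike. Elavl4, which encodes the neuronal RNA-binding protein HuD, lies 45752 bases before Agbl4 on the opposite strand, and stood at 2.68 CPM (222 UMIs) and 23.5 CPM (749 UMIs) at homeostasis, log2 3.13 (2.91 to 3.35). Slc5a9, a sugar transporter 211051 bases beyond its other end, stood at 0.362 CPM (30 UMIs) and 3.82 CPM (122 UMIs), log2 3.38 (2.82 to 4.03). Bend5, inside Agbl4 on the same strand, had a log2 ratio of -0.30 (-0.70 to 0.08), and Spata6, 55660 bases beyond its end, 0.08 (-0.01 to 0.17). Faf1, 433701 bases away, had log2 ratios of 0.27 in the homeostasis and 0.26 in the 5-FU library. After 5-FU the other 4 were lower in the knockout, with log2 ratios of -1.23 for Elavl4, -0.96 for Slc5a9, -0.65 for Bend5 and -0.32 for Spata6. By cluster at homeostasis, the interval lay above 0 in 8 of 12 clusters for Elavl4 and in 3 of 12 for Slc5a9, whose counts were low.

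**Figure D4:**
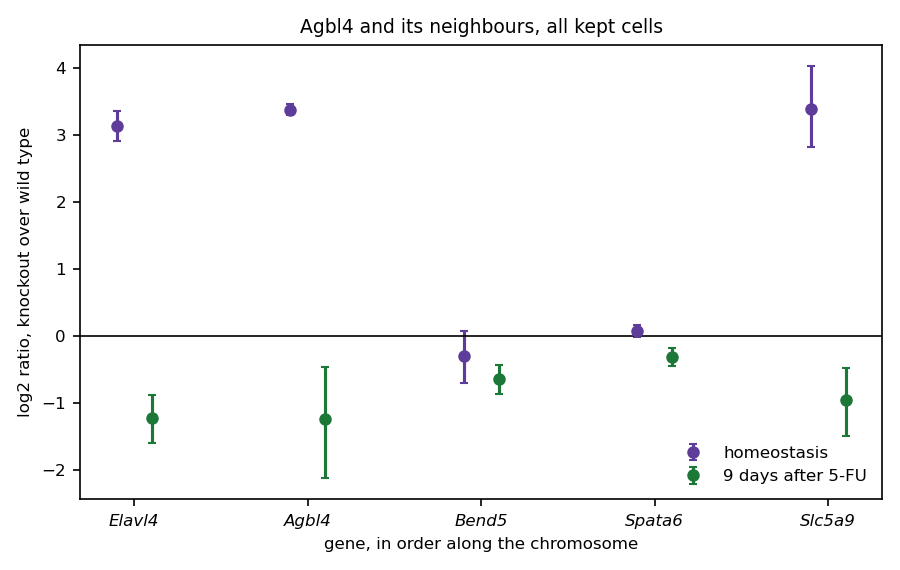
Log2 ratio of Sin3B-/- over wild-type level, with 95% counting intervals, for Agbl4 and 4 of the 5 genes measured around it (Faf1, the farthest, is not drawn), in order along the chromosome, at homeostasis and after 5-FU, over all kept cells. Agbl4, Elavl4 and Slc5a9 lie near 3 at homeostasis and near -1 after 5-FU, while Bend5 and Spata6 lie near 0 at homeostasis.

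Auts2, a nuclear protein that works with a variant Polycomb complex in neurons (chr5:131437333-132543344, minus strand), had the most molecules of the set and was lower in the knockout nearly everywhere. At homeostasis it stood at 215.5 CPM (17863 UMIs) in wild-type and 66.2 CPM (2111 UMIs) in Sin3B-/- cells, log2 -1.70 (-1.77 to -1.64). The share of cells with a UMI was 45.9% and 18.3%, or 35.8% and 13.8% at 4000 UMIs. The interval lay below 0 in 11 of 12 clusters, from -2.78 in unnamed cluster 11 to -0.98 in cluster 3, and the B cell-like cluster, at 147.1 and 119.1 CPM, was the exception (log2 -0.29, -0.74 to 0.10). The B cell-like cluster also had Elane and Car1, genes of other lineages, among its 10 leading genes. LT-HSC-like cells stood at 111.4 CPM in wild type and 42.6 CPM in Sin3B-/- (log2 -1.39, -1.56 to -1.21). After 5-FU the levels were 14.3 CPM (751 UMIs) and 3.14 CPM (137 UMIs), log2 -2.18 (-2.46 to -1.92), with the interval below 0 in 10 of 11 clusters. The exception was LT-HSC-like cluster 7, at 20.6 and 11.5 CPM (log2 -0.87, -1.70 to 0.08), while LT-HSC-like cluster 3 stood at 15.9 and 1.85 CPM (log2 -3.0, -4.59 to -1.92). Gm42439, a transcript on the opposite strand within Auts2 and named after its values were seen, had a log2 ratio of -1.83 from 606 and 65 UMIs over all cells at homeostasis. It was among the leading genes of cluster 2, which held 1755 wild-type and 30 Sin3B-/- cells, and its ratio was not matched by cluster.

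**Figure D5:**
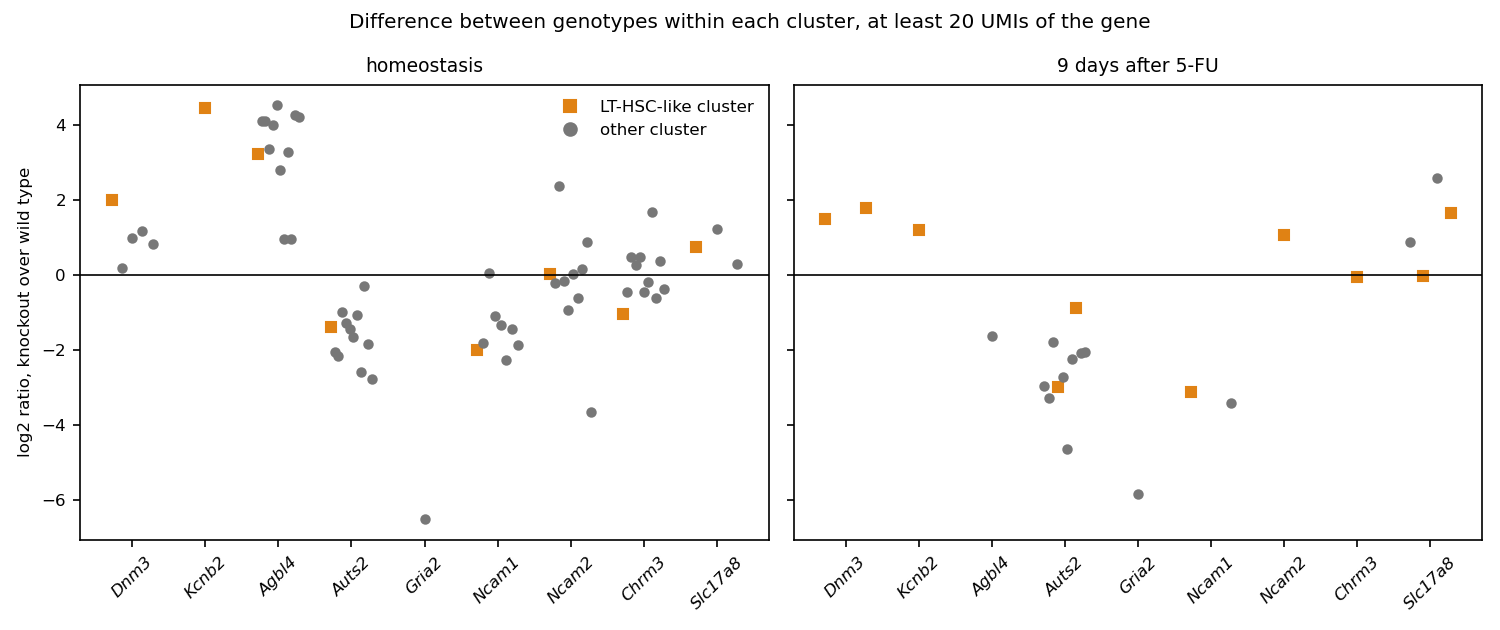
Log2 ratio of Sin3B-/- over wild-type level within each cluster with at least 20 UMIs of the gene, LT-HSC-like clusters as squares and others as circles; the size, and for small clusters the sign, of a point with 0 knockout UMIs, such as Gria2, depends on the 0.5 UMIs added. At homeostasis Agbl4 lies above 0 and Auts2 below 0 in each of 12 clusters, Dnm3 is highest in the LT-HSC-like cluster and Ncam2 lies at 0 there.

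For the transcript families of the 9 genes, members and relatives past 2-fold are given here over all kept homeostasis cells. Of 15509 measured genes, 1.9% were higher and 1.85% lower past that bound. The 9 genes were chosen on this contrast, so nothing is read from the family counts against these shares. Clusters were not matched between genotypes for these lists. Of 3 dynamins and 5 cytosolic carboxypeptidases measured at homeostasis, Dnm3 and Agbl4 were the ones past 2-fold, and the family medians were 0.09 and 0.17 beside 0.01 over all genes. Among 7 potassium channel subunits Kcnb2 was higher and Kcng1, a silent subunit, lower (3.50 and 1.16 CPM, log2 -1.58). Among 12 neural adhesion genes and polysialyltransferases Ncam2 was higher, and Ncam1 and St8sia2, an enzyme that adds polysialic acid to NCAM1, were lower (St8sia2 3.32 and 1.60 CPM, log2 -1.04). St8sia4, the other polysialyltransferase of the list, was far more abundant and under 2-fold, at 146.7 and 165.0 CPM (log2 0.17). Among 5 vesicular transporters Slc17a8 was higher and Slc18a1, a vesicular monoamine transporter, lower (507 and 14 UMIs, log2 -3.75). LT-HSC-like cells held only 7 and 2 UMIs of Slc18a1. Gria2 was the 1 of 15 glutamate receptor genes past 2-fold at homeostasis, and Auts2 the 1 of 12 in its Polycomb list. Of 2 cholinergic genes measured over all cells none was, while Chrm3 was lower past 2-fold in LT-HSC-like cells (log2 -1.03). The median log2 ratio of the potassium channel list was -0.30, of the adhesion list -0.06, of the transporter list -0.13, of the glutamate receptor list 0.08, of the Polycomb list -0.07 and of the cholinergic list 0.33.

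After 5-FU, Gria3, another AMPA receptor subunit, joined Gria2 below the bound, at 30.2 and 14.6 CPM over all cells (log2 -1.04, -1.18 to -0.91) and at 38.6 and 15.1 CPM in LT-HSC-like cells (log2 -1.35, -1.70 to -1.01). At homeostasis its log2 ratio was 0.36 over all cells and -0.04 in LT-HSC-like cells. Of 11 genes for REST and its corepressors, Sin3b, the deleted gene, was alone past 2-fold in each of the 4 pools. The list medians were -0.09 at homeostasis and -0.10 after 5-FU over all cells. Of 24 textbook REST target genes, 9 reached 50 UMIs over all cells at homeostasis and 7 after 5-FU, and the rest were too low to be read. Gria2 alone was past 2-fold in each, and it was chosen on this contrast. The list medians were -0.15 and -0.24. Among all measured genes, 1.9% were higher and 1.85% lower past 2-fold at homeostasis, and 1.25% and 1.51% after 5-FU.

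Across 42 pools of 1 cluster and 1 genotype, the genes whose levels most resembled those of each of the 9 among 11227 genes were listed, 3 for each. These r are descriptions over pools that share libraries, depths and cell types. The genes searched had at least 200 UMIs in each library, and of the 9 only Dnm3, Auts2 and Slc17a8 did. The r of the other members rest in part on low counts, such as 34 UMIs of Kcnb2 and 42 of Chrm3 after 5-FU. For Dnm3 they were Igf1 (r 0.897), Clip3 and Sorbs2, and for Kcnb2 Cyp26b1 (r 0.784), Dnm3 and Ndnf. Cyp26b1, which degrades retinoic acid, was also the second gene for Chrm3, after Pkhd1l1 (r 0.843) and ahead of Il1rapl2. Ncam2 was nearest to Wwtr1 (r 0.847), Lancl3 and Magi2, and Slc17a8 to Lancl3 (r 0.869), Uba7 and Gm10419. Agbl4 was nearest to Gm42031 (r 0.858), Camk2b and Zfp868. The 3 genes for Agbl4, like those for Dnm3 and those for Gria2, were listed for none of the other 8 genes. Sin3b itself was the nearest to Auts2 (r 0.724), ahead of Tanc1 and Rbms1, and the third for Ncam1 (r 0.698), after Khdrbs3 (r 0.743) and Tcaf1. Sin3b is the deleted gene, and Auts2 and Ncam1 were selected on the genotype contrast and were lower in the knockout. Pools of both genotypes enter r, so this likeness in part repeats that contrast. Gria2 resembled Ift57 (r 0.658), Cmah and Il12a. Between the 9 genes themselves the highest r were 0.828 for Ncam2 with Chrm3, 0.799 for Ncam2 with Slc17a8 and 0.789 for Dnm3 with Chrm3.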

How the data were processed

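Single LSK cells were read by 10x 3' v3 sequencing in 2 cDNA libraries, homeostasis and 5-FU, each with a hashtag library, 4 samples in all. The authors deposited raw UMI counts per gene and barcode, made with Cell Ranger (versions 4 and 6.0.1 per the file headers). The submitters' processing notes name the build mm9 and, with no versions, Cell Ranger, Seurat and DESeq2. The homeostasis matrix has no gene list of its own: its rows were read in the order of the 5-FU gene list, checked by the correlation of row sums between libraries (r 0.919, and at most 0.393 with rows shifted). Gene positions are GENCODE M21 on GRCm38, in which 32158 of 32285 gene IDs (99.6%) were found.

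Genotypes were called with HTODemux (Seurat 5.3.0, R 4.3.3, quantile 0.99). Of 23931 and 12753 barcodes called as cells, 11579 and 5302 were wild type, 4628 and 3727 knockout, 1441 and 434 doublets and 6283 and 3290 negative. The homeostasis matrix held all 6794880 barcodes, and a barcode was taken as a cell at 2921 UMIs, by the rule of earlier Cell Ranger versions on the deepest barcodes. No doublets within a genotype were sought. The top and bottom 2% of UMIs, genes and mitochondrial share and cells with more than 1 UMI of 9 lineage genes were removed. Clusters (scanpy 1.11.5, 2000 variable genes without the members and their relatives, 30 components, Leiden resolution 1) were named from markers raised at least 1.5-fold, 3 or more per name. UMIs were summed per genotype and cluster, with exact Poisson, Clopper-Pearson and conditional binomial intervals (scipy 1.17.1). With 1 pool of 2 mice per genotype no test was made. Wild-type and knockout pools totalled 82876977 and 31901720 UMIs in the homeostasis library, 52465485 and 43616355 in the 5-FU library.

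The members, the lists of relatives and the markers were chosen with earlier results of these data known. Named genes are the 9 members, relatives with at least 50 UMIs past 2-fold, Sin3b and the 3 genes most like each member in pools of at least 50 cells per genotype, among genes with at least 200 UMIs in each library. Kcns1 and Kcns3, under 50 UMIs in LT-HSC-like cells, were added after their values were seen. Alternatives were other hashtag rules, scalings, depth, filters, cluster settings and, chosen after seeing the data, leaving out single clusters.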

Additional observations from a re-analysis of the deposited data

Results flagged for a closer look

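Agbl4 differed in opposite directions in the 2 libraries over all kept cells, with a log2 ratio of knockout over wild type of 3.38 at homeostasis and -1.24 after 5-FU, the second under 2-fold in 3 of 9 alternatives. The difference between them was not tested, and the homeostasis counts include intron reads while the 5-FU counts do not. Chrm3 in LT-HSC-like cells likewise had log2 ratios of -1.03 at homeostasis and 1.48 after 5-FU, the second from 7 and 25 UMIs, and 1.0 (3 and 4 UMIs) and -0.05 (4 and 21 UMIs) within clusters 3 and 7 of the 5-FU library. Within homeostasis, Chrm3 was -1.03 in LT-HSC-like cells and 0.27 in all other cells, and this difference was not tested either.

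Cells in which neither hashtag was called went into no comparison. At homeostasis 5611 of them passed the filters, beside 4108 kept Sin3B-/- cells. The Sin3B-/- levels and shares above may therefore not hold for all knockout cells. The genotype of the untagged cells was not tested. The 5611 such homeostasis cells stood above the wild-type level, with counting intervals that did not overlap, for 5 genes, at 7.90 CPM for Dnm3, 3.90 CPM for Kcnb2, 193.7 CPM for Agbl4, 31.0 CPM for Ncam2 and 4.08 CPM for Slc17a8. The 2983 such cells after 5-FU did so for 3, at 5.53 CPM for Dnm3, 0.476 CPM for Kcnb2 and 2.26 CPM for Slc17a8, and were also higher, with overlapping intervals, for Ncam2 (1.43 and 0.705 CPM) and Chrm3 (0.714 and 0.248 CPM). Their Sin3b level was 28.6 CPM at homeostasis and 21.2 CPM after 5-FU, below wild type (81.7 and 112.7 CPM) and above Sin3B-/- (23.3 and 15.1 CPM). They also lay below wild type, with intervals that did not overlap, for Auts2 (97.5 and 4.04 CPM), Gria2 (0.347 CPM and 0 UMIs) and Ncam1 (1.52 and 0.714 CPM). At homeostasis the kept Sin3B-/- cells stood at 15.9 CPM for Dnm3, 7.52 for Kcnb2, 204.8 for Agbl4, 63.9 for Ncam2 and 9.09 for Slc17a8. For Auts2, Gria2 and Ncam1 they stood at 66.2, 0.0940 and 1.16 CPM. After 5-FU they stood at 9.06 CPM for Dnm3, 0.734 for Kcnb2 and 4.40 for Slc17a8.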

How the results depend on the processing

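No paired analysis was possible because each library holds 1 pool per genotype, and for the same reason no replicate could be left out. Of the log2 ratios under alternatives, 200 moved by less than their counting interval, 64 moved by more and 3 past 2-fold turned their sign: Ncam2 over all cells after 5-FU without cluster 7 (-0.045, 31 and 23 UMIs), and in cluster 3 alone of the 5-FU LT-HSC-like cells Ncam2 (-0.19) and Slc17a8 (-0.018), all 3 settings chosen after seeing the data. The cause was not tested. Among ratios under 2-fold, Chrm3 over all homeostasis cells turned from 0.51 to -0.73 with clusters matched between genotypes, and Ncam2 in homeostasis LT-HSC-like cells from 0.03 to -0.04 under the mixture model. Chrm3 in homeostasis LT-HSC-like cells fell short of 2-fold in 3 of 9 settings (-0.75 with all variable genes in the clustering, -0.51 at Leiden resolution 0.5 and -0.94 in the Slamf1 choice of cells), and Agbl4 after 5-FU in 3 of 9 (-0.85 under the 80% hashtag rule, -0.95 under the mixture model and -0.64 thinned). Kcnb2 in homeostasis LT-HSC-like cells ran from 2.12 (mixture model, 34 and 196 UMIs) to 5.11 (80% rule). Dnm3 kept its side and stayed past 2-fold in each setting run, from 1.46 to 3.44 over all homeostasis cells, as did Auts2 (-1.93 to -1.44) and Agbl4 (2.89 to 4.73) there. Under the rule that 80% of hashtag UMIs be one tag, Agbl4 was 4.73 and Ncam2 2.05, and under a mixture model of the hashtags they were 2.95 and 0.84.

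Counts of members past 2-fold moved by more than 1.5 times as follows. Those higher at homeostasis went from 5 to 3 with clusters matched between genotypes, and those lower in LT-HSC-like cells from 3 to 1 in cells with a Slamf1 UMI and none of Cd48 or Flt3. After 5-FU over all cells, those higher went from 3 to 5 at a bound of 20 UMIs, and those lower from 4 to 2 with cells thinned to 4000 UMIs and to 1 at 200 UMIs. In 5-FU LT-HSC-like cells, those higher went from 3 to 1 thinned, to 1 in cluster 3 alone, to 5 at 20 UMIs and to 1 at 200 UMIs. Those lower there went from 2 to 1 under the 80% rule, the mean of per-cell CPM, Leiden resolution 0.5, the Slamf1 choice and cluster 3 alone, and to 0 thinned, in cluster 7 alone and at 200 UMIs. Ncam1 stayed past 2-fold in LT-HSC-like cells in 9 of 9 settings at homeostasis (-2.17 to -1.86) and 12 of 12 after 5-FU (-3.11 to -2.22), so its calls were lost by falling under the UMI bound (11 and 4 UMIs in the Slamf1 choice at homeostasis, 41 and 9 in all 5-FU LT-HSC-like cells). Auts2 in the latter was -0.98 by mean per-cell CPM, -0.96 thinned and -0.87 in cluster 7 alone. In thinned cells and at 200 UMIs fewer genes were measured. The share of all genes past 2-fold ran from 0.294% at 200 UMIs to 2.78% at 20 UMIs, beside 0.719% to 1.9% at 50. Leaving cells in, and matching clusters at homeostasis, was not run for LT-HSC-like cells. Depth limits Kcnb2, Gria2 and Chrm3 most, with 34, 67 and 42 UMIs in all kept cells after 5-FU.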
